A study of Rattus norvegicus with 200 samples.

Results

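The comparison set 33 libraries of rats that ate a high-fat diet (HFD) in the light phase only, HFD light-feeding, against 33 libraries of rats that ate the same diet in the dark phase only, HFD dark-feeding. These are 66 of the 200 libraries in the series, which also covers chow and feeding without restriction. All were bulk RNA-seq libraries of cells isolated as microglia, the resident macrophages of the brain, from adult male Wistar rats, an outbred laboratory strain, of wild-type genotype. The labels give neither the age of the animals nor how long a schedule was kept, nor whether every library is from its own animal. The p-values then reflect only how far these libraries spread, which may be technical. Libraries were made at 6 Zeitgeber times (ZT, hours from lights on), 4 h apart, with 5 or 6 libraries per group and time.

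The members were chosen by label alone, and the 2 groups were then lined up on the food. The light phase begins at ZT0 and the dark phase at ZT12, so the dark-feeding times were moved by 12 h. Hours 2, 6, 10, 14, 18 and 22 from the onset of the feeding phase are ZT2, ZT6, ZT10, ZT14, ZT18 and ZT22 for light-feeding and ZT14, ZT18, ZT22, ZT2, ZT6 and ZT10 for dark-feeding. The feeding phase covered hours 0 to 12 in both groups. Libraries at the same hour therefore stood at the same time from food and at opposite times of the light cycle.

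The circadian clock is a loop in which BMAL1, encoded by Arntl, and CLOCK switch on the genes of their own repressors, the period (Per), cryptochrome (Cry), CIART and REV-ERB (Nr1d1, Nr1d2) proteins. REV-ERB proteins repress Arntl, and ROR proteins activate it. The loop also drives output factors such as DBP, TEF and HLF, which bind D-boxes. Light sets the central clock in the suprachiasmatic nucleus of the brain, and meal time can set the clocks of other organs, best known in the liver.

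Promoter letters of 3 clock genes that lead the comparison are shown because they carry the 3 kinds of element through which this loop acts. They were taken from RefSeq on the GRCr8 build, 250 bases before to 50 bases after the start of the gene, and are not on the build the counts were made with. Capitals mark matches, on either strand, to the E-box CACGTG bound by BMAL1 and CLOCK, to the D-box TTATGTAA, or to AGGTCA or GGGTCA, the core letters of the element bound by ROR and REV-ERB proteins. No match overlapped another in these 3 windows. Ciart lies at chr2:186112197-186112496 on the minus strand, Per2 at chr9:99496944-99497243 on the minus strand and Arntl, which RefSeq calls Bmal1, at chr1:176766078-176766377 on the plus strand.
Ciart: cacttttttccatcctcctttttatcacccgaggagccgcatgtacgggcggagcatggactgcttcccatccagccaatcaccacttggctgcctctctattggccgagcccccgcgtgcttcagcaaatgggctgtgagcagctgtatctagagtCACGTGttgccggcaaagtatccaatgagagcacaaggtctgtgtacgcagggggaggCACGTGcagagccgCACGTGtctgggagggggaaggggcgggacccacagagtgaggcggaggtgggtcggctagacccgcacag
Per2: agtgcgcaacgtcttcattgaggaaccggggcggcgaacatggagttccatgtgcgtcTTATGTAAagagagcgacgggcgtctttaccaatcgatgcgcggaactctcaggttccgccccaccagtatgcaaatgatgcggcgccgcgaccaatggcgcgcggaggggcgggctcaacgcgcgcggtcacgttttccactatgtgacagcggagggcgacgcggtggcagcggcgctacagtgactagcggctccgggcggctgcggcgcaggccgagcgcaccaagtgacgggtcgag
Arntl: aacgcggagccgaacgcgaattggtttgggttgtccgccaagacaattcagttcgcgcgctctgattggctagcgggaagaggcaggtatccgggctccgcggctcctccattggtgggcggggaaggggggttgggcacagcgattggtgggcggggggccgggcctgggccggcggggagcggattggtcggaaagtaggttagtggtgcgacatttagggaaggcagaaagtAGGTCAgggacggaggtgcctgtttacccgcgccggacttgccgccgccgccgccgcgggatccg

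The Ciart window held 3 copies of CACGTG, the Per2 window 1 copy of TTATGTAA and the Arntl window 1 copy of AGGTCA. Over all 33469 RefSeq promoters of the same length, 6.42% held CACGTG, 0.89% TTATGTAA, 16.18% AGGTCA and 13.77% GGGTCA. Of 20 clock genes, 17 had a promoter in that table. CACGTG stood in those of Ciart, Bhlhe40, Bhlhe41, Nr1d1 and Tef, AGGTCA in those of Arntl and Nr1d2, and GGGTCA in that of Nr1d2. A match describes the letters and is no evidence of binding.

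Total counts, in units of 10 to the power of 6 (M), ran from 4.82 to 11.37 M in light-feeding libraries, with a median of 7.57 M, and from 4.83 to 11.64 M in dark-feeding libraries, with a median of 7.96 M. The labels say microglia, and microglial genes were present, but oligodendrocyte and neuron genes were also high. On the per-length scale of the authors' FPKM values, the median over homeostatic microglia genes was 32.3 FPKM in light-feeding and 32.9 FPKM in dark-feeding libraries (24 genes). Over oligodendrocyte markers it was 208 and 210 FPKM (14 genes), and over neuron markers 50.0 and 50.0 FPKM (18 genes). Title numbers of the libraries formed 2 series, 47 to 85 and 89 to 141, and within each series neighbouring numbers held the same hour from food in both schedules. What the title number stands for is not in the labels. Title order therefore moved with time from food and could not be told apart from it within a series, while the time of the light cycle differed between neighbouring libraries.

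Averaged over the day, few genes passed for a difference between the 2 schedules at equal time from food. With the hour as a factor, 11 of 14080 genes with a mean of at least 1 CPM (counts scaled to a library total of 10 to the power of 6, the unit of all levels below unless FPKM is named) passed, 0.0781%, by edgeR's quasi-likelihood test at a Benjamini-Hochberg adjusted p under 0.05. Of these, 7 were higher (0.0497%) and 4 lower (0.0284%) in light-feeding. None of the clock genes, glucocorticoid targets, chaperones or microglia genes listed for the comparison was among them, and the only listed gene was Vcan, versican, a matrix proteoglycan of oligodendrocyte precursors. At an unadjusted p under 0.05 by edgeR there were 1677 genes. With ZT as the factor in place of the hour from food, 12 genes passed.

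Degs1, the desaturase that completes ceramide, averaged 124 ± 9.72 CPM in light-feeding and 111 ± 8.51 CPM in dark-feeding libraries (SD, n = 33 each). Its log2 fold change (log2FC) of light-feeding over dark-feeding was 0.16 (SE 0.03, adjusted p = 0.00234 by edgeR), with the same sign at 6 of 6 hours. Light-feeding libraries spanned 102 to 148 CPM with a median of 125, and dark-feeding libraries 93.4 to 129 CPM with a median of 112, so the groups overlapped widely. Smc1a, a cohesin subunit that holds sister chromatids together, averaged 101 ± 10.5 CPM in light-feeding and 89.1 ± 7.24 CPM in dark-feeding libraries (log2FC 0.18, SE 0.03). Ubqln2, a shuttle to the proteasome, rose by 0.19, the tubulin Tuba1a and the RNA-binding Snd1 each by 0.15, the lysosomal thioesterase Ppt1 by 0.12 and Ubald1 by 0.19 on the log2 scale.

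Vcan fell to 146 ± 10.5 CPM in light-feeding, against 159 ± 10.6 CPM in dark-feeding libraries (log2FC -0.12, SE 0.03). Arhgap4, a GTPase-activating protein, fell by 0.13 and Mzt2b, a partner of the gamma-tubulin complex, fell by 0.11. Timm8a2, which stood below the 5 CPM asked of named genes and is given because only 4 genes fell, fell by 0.36. These calls were few and moved easily. Leaving out 1 library gave 3 to 47 calls, the lowest without light-feeding replicate 33 and the highest without dark-feeding replicate 14. With scores of other cell types' markers in the model 0 genes passed (1225 at an unadjusted p under 0.05), and DESeq2 called 113.

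**Figure D1:**
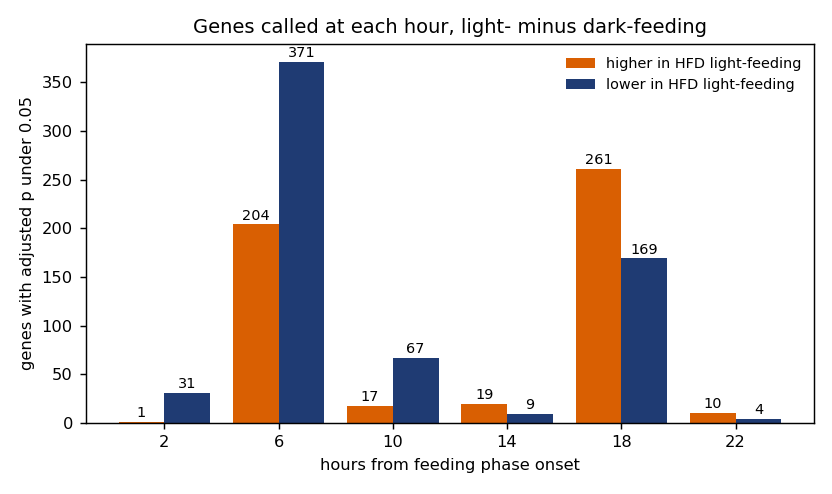
Number of genes past an adjusted p of 0.05 at each hour from feeding phase onset, higher or lower in HFD light-feeding than in HFD dark-feeding. Calls stand at hours 6 and 18, with 575 and 430 genes, and are few at the other hours, from 14 to 84.

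Hour by hour the difference was larger, and it came in pairs of hours. The contrast of the groups passed for 32 genes at hour 2 (0.227%), 575 at hour 6 (4.08%), 84 at hour 10 (0.597%), 28 at hour 14 (0.199%), 430 at hour 18 (3.05%) and 14 at hour 22 (0.0994%). Clock genes were among those called at each hour, and each one called at both of 2 hours 12 h apart had opposite signs there. At hour 2, 1 clock gene of 20 was higher and 6 were lower in light-feeding, and at hour 14 it was 8 higher and 2 lower. At hour 6, 2 were higher and 8 lower, and at hour 18, 9 were higher and 1 lower. At hours 10 and 22, between these, 2 were higher and 2 lower and 1 was higher and 1 lower.

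**Figure D2:**
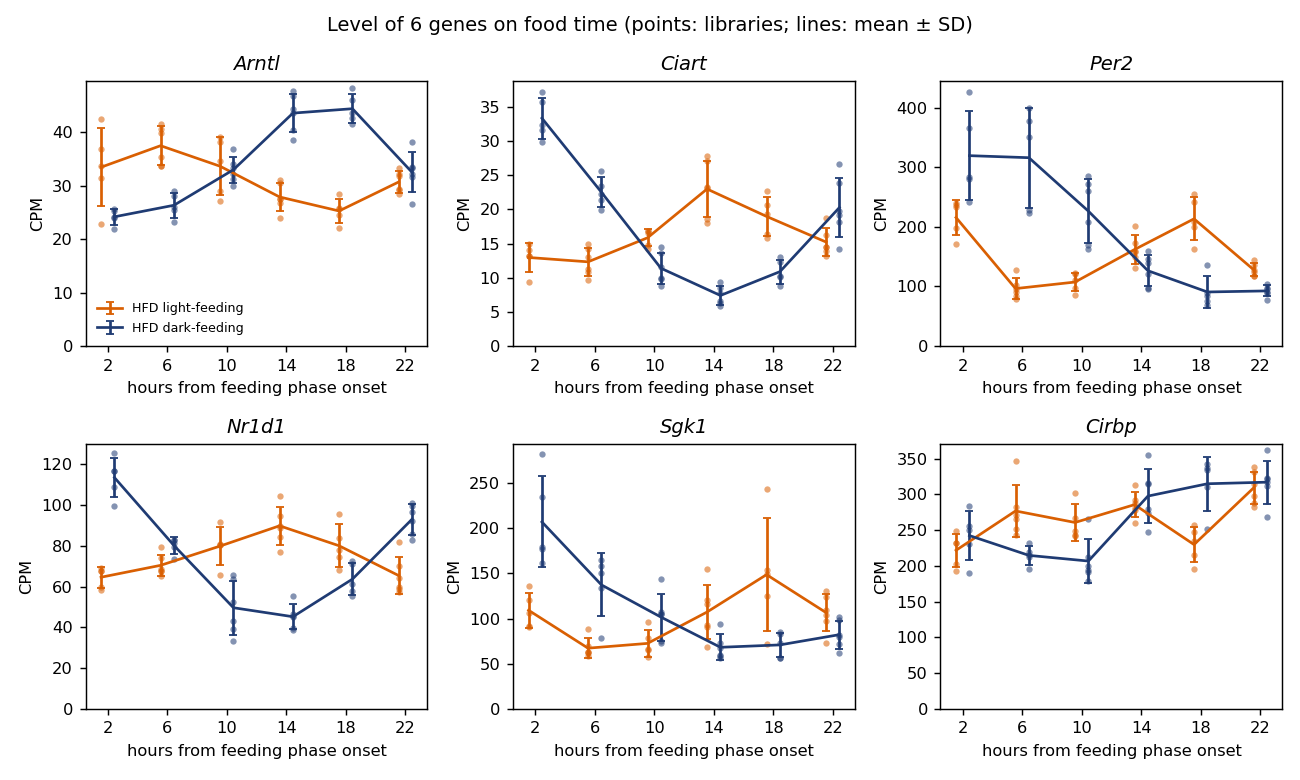
Level in CPM of Arntl, Ciart, Per2, Nr1d1, Sgk1 and Cirbp against hours from feeding phase onset, with 1 point per library and lines through the mean ± SD of HFD light-feeding (orange) and HFD dark-feeding (blue). Ciart is lower in light-feeding at hour 2 and higher at hour 14, Arntl does the opposite, and the light-feeding curves of the 4 clock genes are the flatter ones.

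At hour 2 (ZT2 in light-feeding, ZT14 in dark-feeding) the clock repressor Ciart differed most. It had 9.45, 13.1, 13.2, 14.1 and 15.0 CPM in the 5 light-feeding libraries, against 29.8, 31.7, 32.3, 35.7 and 37.2 CPM in the 5 dark-feeding libraries. Every light-feeding library lay below every dark-feeding library (log2FC -1.36, SE 0.14, adjusted p = 8.36e-10 by edgeR). Dbp had 28.3, 31.2, 31.4, 31.5 and 33.0 CPM in light-feeding, against 50.3, 63.8, 67.9, 69.2 and 74.6 CPM in dark-feeding libraries (log2FC -1.06, SE 0.12). Arntl went the other way, with 22.8, 31.4, 33.6, 36.9 and 42.5 CPM in light-feeding and 21.9, 23.9, 24.2, 25.2 and 25.6 CPM in dark-feeding libraries, so 1 light-feeding library lay among the dark-feeding ones (log2FC 0.48, SE 0.10, adjusted p = 0.0117). It was the 1 gene higher in light-feeding at this hour (0.0071%), when 31 were lower (0.22%). Among these were Sgk1, a kinase that glucocorticoids induce, at -0.92 (SE 0.21), and Atp6v1e2, a proton pump subunit, at -1.20 (SE 0.21), again without overlap between the groups.

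At hour 14 the light cycle is the other way round (ZT14 in light-feeding, ZT2 in dark-feeding). Here 19 genes were higher (0.135%) and 9 lower (0.0639%), and Ciart, Dbp and Arntl stood on the opposite side. Ciart had 18.0 to 27.9 CPM in the 6 light-feeding libraries, with a median of 23.2, against 5.93 to 9.40 CPM in the 6 dark-feeding libraries, with a median of 7.14. The groups did not overlap (log2FC 1.63, SE 0.13, adjusted p = 9.94e-14). Dbp rose by 1.21 (SE 0.11) and Nr1d1, which encodes the repressor REV-ERB alpha, by 0.99 (SE 0.10), both without overlap. Arntl had 24.0 to 31.0 CPM in light-feeding libraries, with a median of 27.5, against 38.5 to 47.7 CPM in dark-feeding libraries, with a median of 43.9 (log2FC -0.64, SE 0.09). Its partner Clock fell by 0.32 (SE 0.06), and both of these falls were without overlap. Gpd1, glycerol-3-phosphate dehydrogenase, rose by 0.88 (SE 0.20) with overlap between the groups, while Clstn2, a synaptic calsyntenin, fell by 0.38 and Ttc16 by 0.42.

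At hour 6, 204 genes were higher (1.45%) and 371 lower (2.63%) in light-feeding. Per2, a core repressor of the clock, had 79.0 to 127 CPM in 6 light-feeding libraries, with a median of 93.5, against 224, 229, 350, 378 and 400 CPM in 5 dark-feeding libraries (log2FC -1.71, SE 0.16, adjusted p = 1.75e-11). No light-feeding library reached the lowest dark-feeding one. Gpd1 fell by 1.23 (SE 0.21), without overlap between the groups, and so did the T-box factor Eomes (log2FC -1.36, SE 0.26) and Spry4, an inhibitor of growth factor signalling (log2FC -1.32, SE 0.27). Among the genes named for the size of their rise, Fcgr3a, an Fc receptor of myeloid and NK cells, had 3.53 to 9.32 CPM in light-feeding libraries, with a median of 5.48, against 1.61, 2.50, 2.60, 3.17 and 3.51 CPM in dark-feeding libraries (log2FC 1.15, SE 0.30). Nid2, a basement membrane protein, rose by 0.78 (SE 0.18), again without overlap. Lilrb3, an inhibitory receptor of myeloid cells, rose by 0.93 (SE 0.25) and C3, a complement component, by 0.86 (SE 0.23), both with overlap and both with 1 light-feeding library far above the rest. Few immune genes were called by list, with 0 of 23 interferon response genes, 0 of 22 genes of NF-kB and cytokines and 1 of 14 of MHC class II (7.14%). The median log2FC of these lists was still higher than over all genes. It was 0.43, 0.24 and 0.72 in that order, beside 0.01 over all genes.

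By list, 8 of 15 glucocorticoid-induced genes, 7 of 16 heat shock chaperones and 4 of 17 endoplasmic reticulum chaperones were lower in light-feeding at hour 6, and none of these lists had a higher member. Of all genes, 2.63% were called lower and 1.45% higher at this hour. Of 4 genes listed as cold-inducible, 2, Cirbp and Rbm3, which bind RNA and rise when body temperature falls, were higher, and the other 2, Srsf5 and Rtn3, did not pass. The median log2FC was -0.37 over the glucocorticoid list and -0.27 over the heat shock list, beside 0.01 over all genes. Of 24 homeostatic microglia genes 2 were higher, 8.33%. Leaving out dark-feeding replicate 23, a library of hour 6, brought the count to 197 genes.

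At hour 18 the signs had turned, with 261 genes higher (1.85%) and 169 lower (1.2%). This hour was nearly split by title series, which held 1 lower and 4 higher title numbers in light-feeding, against 4 and 1 in dark-feeding. With the title series as a factor 119 genes passed, 79 higher and 40 lower. Per2 had 163, 199, 208, 242 and 255 CPM in light-feeding, against 68.8, 76.3, 84.4, 88.5 and 136 CPM in dark-feeding libraries (log2FC 1.23, SE 0.17, adjusted p = 5.6e-06). Zbtb16, a zinc finger repressor induced by glucocorticoids, had 35.9, 47.1, 50.5, 84.9 and 91.3 CPM in light-feeding, against 22.4, 25.0, 25.5, 26.2 and 34.3 CPM in dark-feeding libraries (log2FC 1.21, SE 0.22). Neither gene overlapped between the groups. Gpd1 at 1.29 (SE 0.22) and Sgk1 at 1.06 (SE 0.21) overlapped in 1 library. Arntl had 22.0, 24.5, 25.6, 25.7 and 28.5 CPM in light-feeding, against 41.4, 42.6, 43.5, 46.0 and 48.2 CPM in dark-feeding libraries (log2FC -0.81, SE 0.10). Nid2 fell by 0.72, Rhbdf1, an inactive rhomboid protease, by 0.69 and Acr, the sperm protease acrosin, by 0.71. Of the lists, 9 of 16 heat shock chaperones and 6 of 15 glucocorticoid-induced genes were higher and none lower. Without dark-feeding replicate 6, a library of hour 18, 90 genes were called.

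Hours 10 and 22 fall near the ends of the feeding and fasting phases. At hour 10, 17 genes were higher (0.121%) and 67 lower (0.476%). Nr1d1 had 65.5, 80.6, 80.7, 81.1 and 91.6 CPM in light-feeding libraries, against 33.4 to 65.6 CPM in 6 dark-feeding libraries, with a median of 47.8, and the groups met at their edges (log2FC 0.68, SE 0.11, adjusted p = 0.000228). Blvra, a biliverdin reductase, rose by 0.59, Tgfbi, a matrix protein, by 0.57 and Pole, the catalytic subunit of DNA polymerase epsilon, by 0.51. Per2 had 86.1, 97.0, 111, 120 and 123 CPM in light-feeding libraries, against 163 to 286 CPM in dark-feeding libraries, with a median of 234 and no overlap (log2FC -1.08, SE 0.16). Eomes fell by 1.21, Zbtb16 by 1.02 and Egr3, an immediate early factor, by 0.97. Of 20 immediate early genes 3 were lower. Without dark-feeding replicate 17 this hour gave 397 calls, and without light-feeding replicate 14 it gave 31.

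At hour 22, 10 genes were higher (0.071%) and 4 lower (0.0284%). Cry1, a core repressor, had 17.6 to 21.7 CPM in 6 light-feeding libraries, with a median of 20.7, against 11.5 to 14.8 CPM in 6 dark-feeding libraries, with a median of 13.3 (log2FC 0.59, SE 0.13, adjusted p = 0.031). Nr1d1 had 57.5 to 82.0 CPM in light-feeding libraries, with a median of 62.1, against 82.9 to 101 CPM in dark-feeding libraries, with a median of 94.4 (log2FC -0.51, SE 0.10). Neither gene overlapped between the groups. Cryab, a small heat shock protein, rose by 0.70 and Rab7b, a GTPase of endosomes, fell by 0.79, both without overlap. Acot11, an acyl-CoA thioesterase, rose by 0.81, with 1 light-feeding library at 27.8 CPM and the others at 11.3 CPM or lower. LOC102551901 rose by 0.53, and Wsb1, a subunit of ubiquitin ligases, fell by 0.34. Without light-feeding replicate 4 this hour gave 0 calls (1454 at an unadjusted p under 0.05 by edgeR), while DESeq2 called 36 genes in all libraries.

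The opposite signs 12 h apart were then tested as waves. A shift of 12 h turns a wave of 24 h upside down, so each gene's daily wave splits into a part that the groups shared at equal ZT, the light wave, and a part that they shared at equal time from food, the food wave. The light wave is the same quantity as the difference between the groups' rhythms on food time. It passed for 1716 genes (12.2%) and the food wave for 3084 genes (21.9%), with 890 genes in both, 51.9% of the light calls and 28.9% of the food calls. Peak-to-trough sizes were small, with medians of 0.26 on the log2 scale among the light calls and 0.25 among the food calls, beside 0.12 and 0.14 over all genes. At least 1.5-fold were 150 light waves and 251 food waves. With time as a factor in place of waves, the group by hour interaction passed for 1459 genes (10.4%) on food time and for 3954 genes (28.1%) on ZT.

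**Figure D3:**
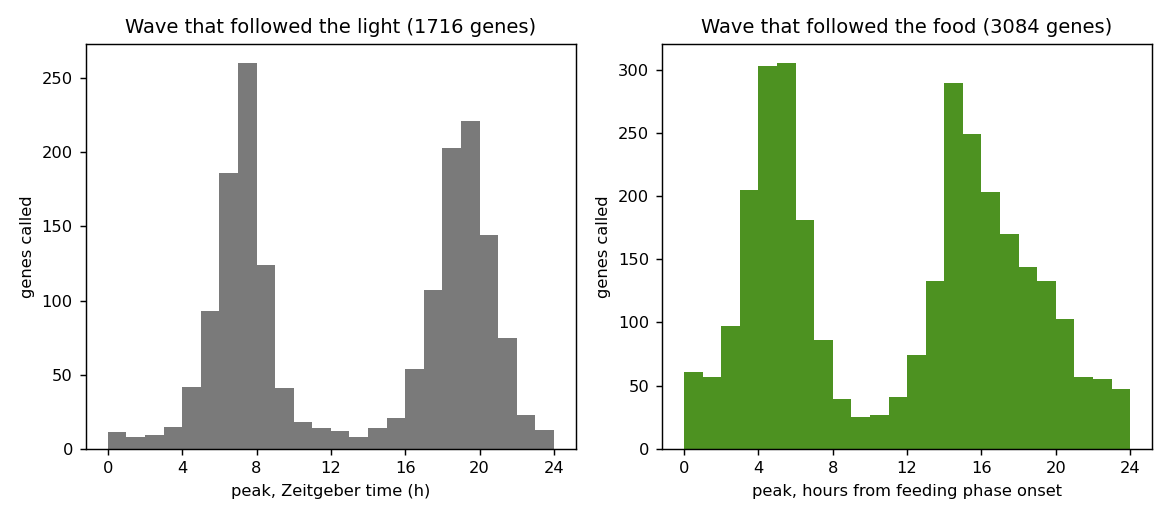
Peak times of the genes called for the light wave, on Zeitgeber time, and for the food wave, on hours from feeding phase onset, in bins of 1 h. Light peaks gather at ZT5 to ZT9 (663 genes) and ZT17 to ZT22 (750 genes), and food peaks at 3 to 7 h (994 genes) and 14 to 20 h (1188 genes).

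Peaks of both waves fell into 2 clusters. Of the light calls, 38.6% peaked between ZT5 and ZT9 and 43.7% between ZT17 and ZT22, in the middle of the light and of the dark phase. Of the food calls, 32.2% peaked 3 to 7 h after feeding phase onset and 38.5% 14 to 20 h after it, in the middle of the feeding phase and in the fasting phase.

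The food wave's count differed between the title series. In the 33 libraries of the lower title series alone it passed for 2216 genes (15.7%), and in the 33 of the higher series for 28 (0.199%), with 5 genes in both. The light wave passed for 80 (0.568%) and 300 genes (2.13%) in these series, 36 in both. With the mean level of homeostatic microglia genes in the model, the food wave passed for 513 genes (3.64%), 495 of them among the 3084, and the light wave for 610 (4.33%), 599 of them among the 1716. Which wave was called more often was therefore not stable. The light wave had more calls in the higher title series, with the microglia level in the model, and without hour 2, where it passed for 2132 genes and the food wave for 1268. With the 12 runs of neighbouring title numbers as a factor, which leaves no food wave to test, the light wave passed for 1346 genes.

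Clock genes carried both waves, and in each of the 8 core repressors the light wave was the larger one. Of 20 clock genes, 16 passed for the light wave, where 12.2% of all genes did, and 14 for the food wave, where 21.9% did. Among the 8 core repressors the median light wave was 0.71 on the log2 scale and the median food wave 0.46, beside 0.12 and 0.14 over all genes. Ciart had a light wave of 1.43 (SE 0.08) with a peak at ZT14.6, and a food wave of 0.64 (SE 0.08, adjusted p = 1.58e-06 by edgeR) with a peak 1.45 h from food. Per2 had a light wave of 1.40 (SE 0.14) peaking at ZT18.4 and a food wave of 0.69 (SE 0.14) peaking at 5.10 h. Arntl had a light wave of 0.69 (SE 0.06) peaking at ZT4.38 and a food wave of 0.25 (SE 0.05) peaking at 14.2 h, both about opposite to those of Ciart. The 6 repressors called for the food wave all peaked in the first part of the feeding phase, 0.70 to 6.28 h from its onset.

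**Figure D4:**
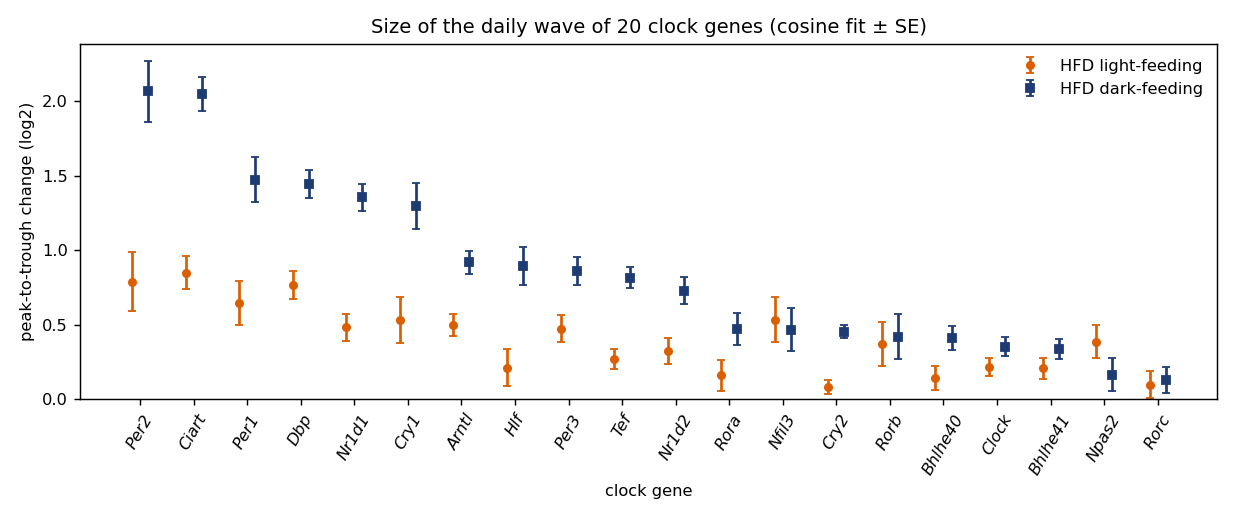
Peak-to-trough change on the log2 scale, with the standard error of the cosine fit, for 20 clock genes in HFD light-feeding (orange circles) and HFD dark-feeding (blue squares), ordered by the dark-feeding value. The light-feeding value is the lower one for 18 of 20 genes, among them Ciart at 0.85 against 2.05 and Per2 at 0.79 against 2.07.

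Clock waves were smaller in the light-feeding libraries. In this fit each group's wave is the light wave plus or minus the food wave. Without a food wave the 2 groups would therefore have equal sizes and peaks on ZT. Title order moved with time from food, so these differences cannot be told apart from a difference of title order. The peak-to-trough change of Ciart was 0.85 (SE 0.11) in light-feeding and 2.05 (SE 0.11) in dark-feeding, a difference of -1.20 (SE 0.16). That of Per2 was 0.79 in light-feeding and 2.07 in dark-feeding (difference -1.28, SE 0.28), and that of Per1 was 0.64 and 1.47 (difference -0.83, SE 0.21). Nr1d1 gave 0.48 in light-feeding and 1.35 in dark-feeding (difference -0.87, SE 0.13), Cry1 0.53 and 1.29 (difference -0.76, SE 0.22), and Tef 0.27 and 0.81 (difference -0.55, SE 0.10). Arntl gave 0.50 in light-feeding and 0.92 in dark-feeding (difference -0.42, SE 0.11). Of 20 clock genes 18 had the smaller wave in light-feeding, 14 by more than 2 SE, and Npas2, a paralogue of Clock, and Nfil3, a repressor of D-box genes, had the larger one by less than 2 SE. Over all 14080 genes 67.6% had the smaller wave in light-feeding, with median sizes of 0.14 in light-feeding and 0.21 in dark-feeding. Among the 1716 light calls it was 90.3% and among the 3084 food calls 79.6%. As 16 of the 20 clock genes were light calls, their share was about that of light calls in general.

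Peaks of the 16 clock genes called for the light wave moved by less than the 12 h between the feeding phases. Small moves follow in part from this choice of genes. A light wave larger than the food wave by itself keeps the peaks of the 2 groups near each other on ZT. On ZT, 13 of them peaked later in light-feeding and 3 earlier, with a median of 1.01 h later, and 7 were later and 0 earlier by more than 2 SE. Over all 1716 light calls 78.7% peaked later. Like the wave sizes, these moves of the peak cannot be told apart from title order. Nr1d1 peaked at ZT13.4 (SE 0.71 h) in light-feeding and at ZT13.0 (SE 0.26 h) in dark-feeding, and Ciart at ZT15.5 (SE 0.51 h) and ZT14.3 (SE 0.21 h). Dbp peaked 1.37 h later in light-feeding (SE 0.53) and Arntl 1.60 h later (SE 0.67). Shifts of over 3 h were found for Nfil3 and for 3 period and cryptochrome genes. Nfil3 peaked 4.21 h later (SE 1.64). Per1 peaked at ZT19.2 in light-feeding and at ZT15.7 in dark-feeding, 3.47 h later (SE 0.95). Per3 peaked 4.05 h later (SE 0.84) and Cry1 3.64 h later (SE 1.20), while Per2 peaked 1.61 h later (SE 1.03), within 2 SE of no move. Hlf peaked 2.59 h earlier (SE 2.29) and Bhlhe40, a repressor of E-box genes, 1.40 h earlier (SE 2.26), both also within 2 SE. Rora and Rorb, which encode ROR activators, had no called light wave, and their food waves of 0.32 and 0.37 peaked 5.93 and 8.33 h from food.

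Food waves of the clock genes Ciart, Per2, Per1 and Nr1d1 peaked in the feeding phase in both title series. Most clock genes were not called for the food wave in the higher series. Peaks by series carry no error here and are not given for the other clock genes. The peak of Ciart was at 0.79 h from food in the lower and 2.12 h in the higher series, that of Per2 at 4.01 and 6.13 h, that of Per1 at 1.36 and 3.03 h and that of Nr1d1 at 0.74 and 0.57 h. Of 20 clock genes 9 passed for the food wave in the lower series, where 15.7% of all genes did, and 1, Ciart, in the higher, where 0.199% did. For the light wave it was 13, where 0.568% of all genes passed, and 14, where 2.13% did. With the microglia level in the model 9 passed for the food wave, where 3.64% of all genes did, and 16 for the light wave, where 4.33% did.

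Glucocorticoid-induced genes peaked in the dark phase, and later in light-feeding. Glucocorticoids are the adrenal hormones that rise before a rat's active phase. Of 15 measured, 10 passed for the light wave, where 12.2% of all genes did, and 10 for the food wave, where 21.9% did. The median light wave was 0.39. All 10 light calls peaked later on ZT in light-feeding, by 1.59 to 6.84 h with a median of 3.40 h, and had the smaller wave there. Over all 1716 light calls, 78.7% peaked later and 90.3% had the smaller wave in light-feeding. As for the clock genes, these differences between the groups cannot be told apart from title order. Sgk1 had a light wave of 1.08 (SE 0.14) and peaked at ZT19.4 (SE 0.79 h) in light-feeding and at ZT16.0 (SE 0.49 h) in dark-feeding. Zbtb16 peaked at ZT20.0 and ZT16.6, 3.49 h later (SE 0.92), and Fkbp5, which restrains the glucocorticoid receptor, 2.72 h later (SE 0.97). Outside the list, Gpd1 peaked 3.42 h later (SE 0.66) and Pex11a, a peroxisome division protein, 3.34 h later (SE 0.76), with light waves of 1.30 and 1.02. Per1, also a glucocorticoid target, is in this list too.

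The levels of Sgk1 show the same. They were 149 ± 62.2 CPM (SD, n = 5) at hour 18 and 109 ± 19.5 CPM (n = 5) at hour 2 in light-feeding, and 67.2 ± 10.7 CPM (n = 6) at hour 6, the lowest mean. In dark-feeding they were 207 ± 50.4 CPM (n = 5) at hour 2 and 68.2 ± 14.3 CPM (n = 6) at hour 14. The highest mean thus stood at ZT18 in light-feeding and at ZT14 in dark-feeding.

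Immediate early genes, which neurons and glia switch on within minutes of stimulation, passed for the light wave in 11 of 20, where 12.2% of all genes did, and for the food wave in 4 of 20, or 20%, about the 21.9% of all genes. Of the 11, 9 peaked in the dark phase and 2, Klf4 and Dusp6, in the light phase. Npas4, a neuronal activity factor, had a light wave of 1.22 (SE 0.30, adjusted p = 0.00195 by edgeR) peaking at ZT20.4. The orphan receptors Nr4a2 and Nr4a3 had light waves of 0.95 and 1.06 with peaks at ZT19.7 and ZT19.5. Their food waves of 0.68 and 0.95 did not pass. Gpatch4, a nucleolar protein, had a light wave of 0.93 peaking at ZT17.7.

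Called waves of heat shock chaperones peaked in the dark phase and in the feeding phase. Of 16 measured, 10 passed for the light wave, where 12.2% of all genes did, all peaking at ZT18.4 to ZT20.4. For the food wave 7 passed, or 43.8%, where 21.9% of all genes did, all peaking 4.39 to 6.81 h from food. Hspa8, the constitutive HSP70, had a light wave of 0.36 (SE 0.07) and a food wave of 0.26 (SE 0.07). The peak-to-trough change was 0.11 (SE 0.10) in light-feeding and 0.61 (SE 0.10) in dark-feeding. Of 17 endoplasmic reticulum chaperones and partners 8 passed for the light wave, or 47.1%, and 4 for the food wave, or 23.5%, which is about the share of all genes. Herpud1, of the degradation pathway, had waves of 0.31 and 0.32, peaking at ZT17.0 and 3.53 h from food. Hspa5, the lumenal HSP70, had waves of 0.37 and 0.28.

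Cirbp and Rbm3, the 2 of 4 listed cold-inducible genes that passed for either wave, had peaks in the opposite phases. Cirbp had a light wave of 0.34 (SE 0.07, adjusted p = 0.00177 by edgeR) peaking at ZT7.37 and a food wave of 0.37 (SE 0.07, adjusted p = 0.000586) peaking 18.7 h from food, in the light phase and in the fasting phase. Its peak-to-trough change was 0.07 (SE 0.10) in light-feeding and 0.71 (SE 0.10) in dark-feeding. It averaged 230 ± 25.0 CPM (SD, n = 5) at hour 18 and 261 ± 25.5 CPM (n = 5) at hour 10 in light-feeding. In dark-feeding, where the light phase and the fast coincide, it averaged 315 ± 37.8 CPM (n = 5) at hour 18 and 207 ± 30.6 CPM (n = 6) at hour 10. Rbm3 had waves of 0.37 and 0.43, peaking at ZT8.32 and 17.3 h, and changes of 0.32 in light-feeding and 0.73 in dark-feeding.

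Genes of insulin and FOXO signalling had food peaks in the feeding phase. Of 23, 9 passed for the food wave, where 21.9% of all genes did, and all 9 peaked 2.25 to 6.98 h from food. Irs1, an insulin receptor substrate, had a food wave of 0.49 peaking at 4.67 h, Irs2 one of 0.34 at 4.69 h and Foxo3, a FOXO factor, one of 0.35 at 4.18 h. Of 13 genes of fatty acid synthesis 4 passed, or 30.8%, with peaks in the fasting phase, 18.9 to 21.9 h from food. The median food wave over the 13 was 0.17, beside 0.14 over all genes. Fasn, fatty acid synthase, had a food wave of 0.23 and Srebf1, the sterol factor that drives it, one of 0.36. Of 24 genes of cholesterol synthesis 9 passed, and 8 of these peaked in the fasting phase, 12 to 24 h from food.

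**Figure D5:**
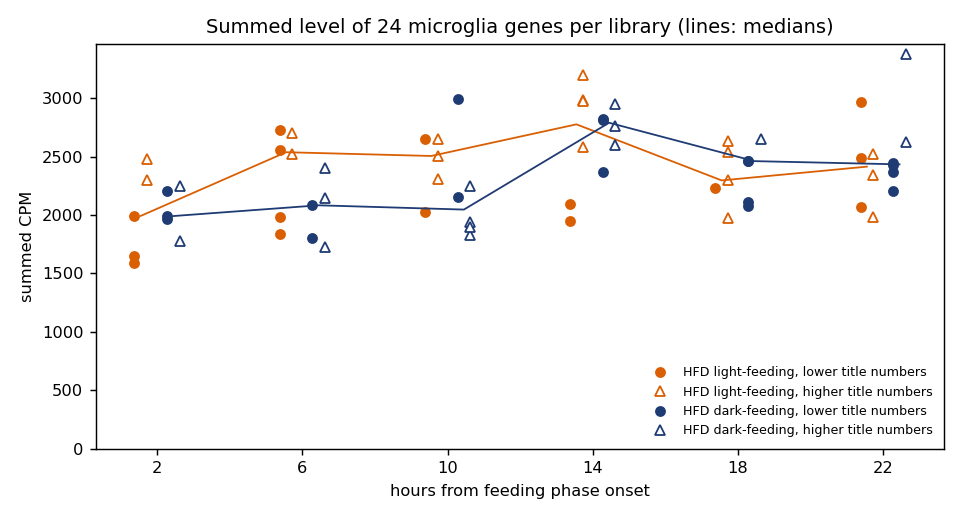
Summed CPM of 24 homeostatic microglia genes in each library against hours from feeding phase onset, for HFD light-feeding (orange) and HFD dark-feeding (blue), with filled circles for the lower and open triangles for the higher title series and lines through the medians. Medians are lowest at hour 2, 1993 and 1991 CPM, and highest at hour 14, 2776 and 2789 CPM.

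Over all 66 libraries, microglia genes were called for the food wave more often than for the light wave, with food peaks in the fasting phase. Of 24 homeostatic genes, 15 passed for the food wave, where 21.9% of all genes did, and 3 for the light wave, where 12.2% did. All 15 food peaks lay 14.6 to 17.5 h from the onset of the feeding phase. Csf1r, the receptor for the survival factor CSF1, had a food wave of 0.41 (SE 0.08, adjusted p = 0.000755 by edgeR), and Aif1, which encodes the microglial protein IBA1, one of 0.65 (SE 0.11, adjusted p = 0.000565). P2ry12, the purinergic receptor of resting microglia, had one of 0.34 (SE 0.09), and Cx3cr1, the fractalkine receptor, one of 0.33 (SE 0.09) beside a light wave of 0.37. The summed level of the 24 genes at hour 2 was 1593 to 2479 CPM in 5 light-feeding libraries, with a median of 1993, and 1779 to 2245 CPM in 5 dark-feeding libraries, with a median of 1991. At hour 14 it was 1953 to 3200 CPM in 6 light-feeding libraries, with a median of 2776, and 2370 to 2951 CPM in 6 dark-feeding libraries, with a median of 2789. In bulk RNA fewer microglia and less of these transcripts per cell cannot be told apart. Within the lower title series alone 2 of the 24 passed for the food wave, where 15.7% of all genes did. In the higher series it was also 2, where 0.199% did. Title order moved with time from food and cannot be told apart from it in these waves.

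Other immune lists had most of their food peaks in the fasting phase as well. The counts below stand beside the 21.9% of all genes that passed for the food wave. Of 23 interferon response genes 10 passed for the food wave, with peaks 13.1 to 16.4 h from food, among them Irf8, a myeloid factor, at 0.51 (SE 0.09). Of 20 genes of disease-associated microglia 10 passed, with peaks from 10.5 to 17.5 h, 1 of them in the feeding phase. Of 22 genes of NF-kB and cytokines 8 passed, with peaks spread from 4.91 to 17.8 h, 2 of them in the feeding phase. Of 16 T and NK cell markers 9 passed, with peaks from 11.3 to 15.3 h, 4 of them in the last hour of the feeding phase. Light waves were called in these 4 lists too, in 7 of 23, 4 of 20, 5 of 22 and 2 of 16 genes in the order above. That is 30.4%, 20%, 22.7% and 12.5%, where 12.2% of all genes passed. Of 14 MHC class II genes 5 passed for the light wave and 4 for the food wave. Outside the immune lists, 41 of 74 ribosomal protein genes passed, with peaks from 10.7 to 16.8 h. The summed level of the 16 lymphocyte markers ran from 69.6 to 232 CPM in light-feeding and from 56.8 to 235 CPM in dark-feeding libraries. The 4 measured neutrophil markers all passed, with peaks from 11.4 to 12.7 h. Their sum ran from 2.33 to 175 CPM in light-feeding and from 2.44 to 35.6 CPM in dark-feeding libraries. The highest sum of each group was 1 library at hour 14, where the others held 5.58 to 19.9 CPM in light-feeding and 6.22 to 15.3 CPM in dark-feeding. The part of these single libraries in the waves was not tested. Markers of some other cell types moved with time from food too. Of 11 meningeal fibroblast markers 7 passed for the food wave, or 63.6%, with peaks from 12.6 to 16.4 h, and their sum ran from 403 to 609 CPM in light-feeding and from 342 to 644 CPM in dark-feeding libraries. Of 12 cerebellar neuron markers 7 passed, or 58.3%, with peaks spread from 3.69 to 14.5 h, and their sum ran from 5941 to 7860 CPM in light-feeding and from 5188 to 7864 CPM in dark-feeding libraries. Of 11 endothelial markers 4 passed, or 36.4%, with peaks from 14.7 to 17.0 h. Near or below the share of all genes were astrocyte markers with 4 of 17 (23.5%), oligodendrocyte markers with 2 of 14 (14.3%) and general neuron markers with 2 of 18 (11.1%). The sum of oligodendrocyte markers ran from 12546 to 22906 CPM in light-feeding and from 10968 to 22695 CPM in dark-feeding libraries. The part of title order and of cell numbers in the food waves of these lists was not tested. Of the 24 microglia genes 2 passed for the food wave in the lower title series alone, where 15.7% of all genes did, and 2 in the higher, where 0.199% did. For the light wave it was 0, where 0.568% of all genes passed, and 4, where 2.13% did.

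Among the 10 largest food waves at a mean of 5 CPM or more were genes seen in some libraries only. Echs1, an enoyl-CoA hydratase, had a food wave of 2.79 (SE 0.67, adjusted p = 0.0157 by edgeR), with libraries at 0 in both groups and others up to 17.9 CPM. Myh9l1, with a light wave of 3.60 and a food wave of 2.11, was at 0 in every library at hours 2, 6 and 10 of light-feeding and reached 70.1 CPM in dark-feeding. LOC108353256, LOC103694635 and LOC308990 have no name in the files, and LOC103694635 stood at 36.4 and 42.6 CPM in 2 light-feeding libraries and at 37.9 to 41.4 CPM in 5 dark-feeding libraries, against at most 4.9 CPM in the rest. These levels are uncertain where reads were shared with near copies. Pclo, a large presynaptic scaffold, had a food wave of 0.91 (SE 0.16) peaking at 5.73 h and Spry4 one of 1.00 (SE 0.24) at 4.56 h. Cd36, a fatty acid scavenger receptor, had one of 0.91 (SE 0.22) at 15.6 h, Itgax, the integrin CD11c, one of 0.87 (SE 0.19) at 14.1 h and Prf1, perforin of cytotoxic lymphocytes, one of 0.90 (SE 0.27) at 11.3 h. LOC108348047 had a light wave of 1.05 peaking at ZT6.59.

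The same alignment was made on chow, with 33 light-feeding and 33 dark-feeding libraries, to ask whether the HFD result departed from it. Titles carry a letter that differs by diet, and title numbers ran from 20 to 134 in chow light-feeding and from 33 to 151 in chow dark-feeding libraries. Whether the libraries of both diets were handled together is not in the labels. In a fit of all 4 groups, 0 of 14184 genes passed for a different mean effect of the schedule by diet (1041 at an unadjusted p under 0.05) by edgeR and 0 by DESeq2. The smallest p-values were of Trip10 (HFD minus chow -0.25, SE 0.06), Grina (0.24, SE 0.06), Slc35c1 (0.19, SE 0.05) and Jagn1 (0.22, SE 0.06), each at adjusted p = 0.369. For the light wave 0 genes differed by diet (1090 at an unadjusted p under 0.05), and 0 of the 20 clock genes. Light waves of Ciart were 1.43 on HFD and 1.06 on chow, and of Per2 1.40 and 1.29.

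The food wave did differ between the diets, in 2981 genes (21%). It passed for 6037 genes on chow (42.6%) in this fit. Title order moved with time from food, and the title series differ by diet. A difference of diet in the food wave therefore cannot be told apart from a difference of title order. Among clock genes 3 of 20 differed, Arntl (adjusted p = 0.0489 by edgeR), Clock (0.0406) and Rorb (0.0496), the Arntl food wave being 0.25 on HFD and 0.46 on chow. Of 24 homeostatic microglia genes 21 differed. Cx3cr1 had its food peak at 14.7 h on HFD and 19.8 h on chow, with sizes of 0.33 and 0.43 (adjusted p = 0.0096), P2ry12 at 14.7 h and 20.4 h (adjusted p = 0.00853) and Csf1r at 16.3 h and 20.8 h (adjusted p = 0.0161). Among the genes named for the smallest p were S100a9, a neutrophil alarmin, with a food peak at 12.7 h on HFD and 0.70 h on chow, and Pdgfra, the receptor of oligodendrocyte precursors, with a food wave of 0.05 on HFD and 0.66 on chow. On HFD, 1 library of each schedule stood above the others in summed neutrophil markers at hour 14. The part of these libraries in the S100a9 wave was not tested. In Ap1g2, Astn1, Hook2, Ilf2 and Snx32, the food wave ran from 0.01 to 0.30 on HFD and from 0.17 to 0.37 on chow.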

How the data were processed

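The series measured mRNA of isolated rat microglia by strand-specific RNA-seq, per the labels' protocols. Estimated counts per gene and FPKM values of 200 libraries were deposited by the authors, and the submitters' processing notes name the Rnor_6.0 build. Which aligner and counter were used is not given in the sources used here. Of the count entries 8.00% were not whole, so counts were rounded, although plain counts had been foreseen. Of 20361 genes, 27 had symbols that read as dates, and the gene ID stood in for these in the counts. Such rows were left out of the FPKM values.

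Genes with a mean of 1 CPM or more were kept (14080). edgeR 4.0.16 in R 4.3.3, with TMM scaling, gave the quasi-likelihood tests, with Benjamini-Hochberg adjustment over all genes tested and a threshold of 0.05. The hour from feeding phase onset was a factor. Waves were cosines of 24 h, each tested on 2 coefficients, and their sizes and errors came from least squares on log2 CPM (prior count 2). Named genes had a mean of at least 5 CPM and the largest changes past the threshold in each direction, up to 10 for the mean effect and each wave and up to 4 per hour, beside all clock genes. For diet the 4 or 8 with the smallest p are named, except 1 that is not reported here. The members, the 40 lists and the tests were chosen with earlier results of these data known. Alternatives were DESeq2 1.42.0, limma 3.58.1 on log2(FPKM + 1), other filters and scalings, title numbers, marker scores and leaving out libraries or hours. The scripts were checked on simulated data. No 2 libraries had counts alike within sampling noise (lowest chi-square per degree of freedom 2.54 over 2145 pairs).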

Additional observations from a re-analysis of the deposited data

Results flagged for a closer look

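Of 144 sets of libraries of 1 group and hour examined, 10 held a library that stood apart from the others by its gap relative to the range, where chance gives about 1 in 20. Erythrocyte markers summed to 2121 CPM in 1 light-feeding library at hour 6 (others 151.4 to 749.9 CPM), to 852.3 CPM in 1 at hour 22 (others 140.4 to 193.4 CPM) and to 372.3 CPM in 1 dark-feeding library at hour 14 (others 213.7 to 266.1 CPM). Neutrophil markers summed to 22.72 CPM in 1 light-feeding library at hour 6 (others 8.218 to 10.52 CPM), to 174.7 CPM in 1 at hour 14 (others 5.584 to 19.86 CPM), to 16.75 CPM in 1 at hour 18 (others 2.561 to 6.436 CPM) and to 35.57 CPM in 1 dark-feeding library at hour 14 (others 6.218 to 15.32 CPM). Homeostatic microglia genes summed to 2996 CPM in 1 dark-feeding library at hour 10 (others 1826 to 2251 CPM) and to 3374 CPM in 1 at hour 22 (others 2206 to 2626 CPM). Sgk1 stood at 87.9 CPM in 1 light-feeding library at hour 6 (others 58.5 to 69.17 CPM).

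The food wave differed between HFD and chow in 2981 genes by edgeR's test of the difference itself, which cannot tell diet from title order. Among the smallest adjusted p-values by edgeR were 8.81e-07 for S100a9, 0.000114 for Pdgfra, 0.00019 for Snx32 and 0.000193 for Ilf2. Those of Ap1g2, Astn1 and Hook2 were each 0.000231.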

How the results depend on the processing

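Named genes kept their sign for the mean effect, for the contrast at their hour and for the mean effect of the schedule by diet under each alternative run on them; a wave size has no sign. Of contrasts at an hour, 25 of 504 under other settings and 179 of 4752 without 1 library lost their call. Mean effects lost it more often, in 47 of 150 and 161 of 660. For food waves it was 98 of 624 and 47 of 2574, and for light waves 55 of 624 and 26 of 2574. The wave totals include waves that were not called in the main fit. The order of the counts of light and food waves turned round in 3 settings, without hour 2 (2132 and 1268), with the microglia score (610 and 513) and in the higher title series (300 and 28). Genes called for the mean effect (11) were 113 with DESeq2, 7 with 12 runs of title numbers, 0 with marker scores of other cell types (1225 at an unadjusted p under 0.05 by edgeR) and 19 with the microglia score. They were 3, 3, 6, 42 and 64 without hours 6, 10, 14, 18 and 22. DESeq2 called 86 genes at hour 2, 154 at hour 10, 49 at hour 14 and 36 at hour 22. Without a filter hour 2 gave 20, and with FPKM in limma hour 22 gave 9. With the title series as a factor hours 2, 10 and 18 gave 50, 137 and 119. With the marker scores hours 2, 10, 14 and 22 gave 15, 246, 49 and 26. The light wave gave 610 with the microglia score, 185, 712 and 870 without hours 6, 10 and 18, and 80 and 300 in the lower and higher title series. The food wave gave 513 with the microglia score, 1268 and 1335 without hours 2 and 14, and 28 in the higher title series. The cause was not tested. Single title series, the microglia score and the runs in the light wave were chosen after seeing the data. The microglia score holds the microglia genes themselves.

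Leaving out 1 library at a time gave 2644 to 3636 food waves, 1274 to 2045 light waves and 3 to 47 mean effects. By hour it gave 10 to 67 genes at hour 2 (lowest without light-feeding replicate 17, highest without dark-feeding replicate 19), 197 to 694 at hour 6, 31 to 397 at hour 10, 12 to 31 at hour 14 (lowest without light-feeding replicate 2), 90 to 618 at hour 18 and 0 to 19 at hour 22. Replicate numbers follow accession order and pair no libraries, so they were not used as a block. The blocks used were the 12 runs of neighbouring title numbers, with 7 mean effects and 1346 light waves. Hour contrasts rest on 5 or 6 libraries per group.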
